A study of Mus musculus with 6 samples.

Results

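The translation initiation factor genes of bone marrow-derived macrophages (BMDM) were compared with and without interleukin-4 (IL-4), a type 2 cytokine that turns macrophages toward the alternatively activated, or M2, state. The genes were all rows of the deposited expression table whose symbol begins with Eif and a factor number from 1 to 6, and the eIF2 kinases (symbols beginning Eif2ak) were left out of this set. The rule found 51 of 25124 rows, and 50 of them were among the 11235 rows with enough signal to test. The rule used names only, and no measured value entered it. The members, the other gene lists and the ratios were, however, chosen with earlier results of these data known. M2 cells received 10 ng/ml IL-4 together with 20 ng/ml macrophage colony-stimulating factor (M-CSF), while M0 cells received 20 ng/ml M-CSF only. Both groups came from the femurs and tibias of 8-week-old wild-type C57BL/6 mice, were grown for 7 days in M-CSF and were harvested 4 h after the treatment began. Each group had 3 libraries of polyadenylated RNA. The labels do not say whether the libraries of a group came from separate mice or cultures, so the p-values measure the spread between these libraries, which may be technical.

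Initiation factors bring the ribosome to the start codon of a messenger RNA. As background, eIF2 carries the initiator transfer RNA to the small ribosomal subunit, where eIF1, eIF1A and the large complex eIF3 hold the subunit in an open, scanning state. The eIF4 proteins bind the cap of the messenger and unwind its leader, eIF5 and eIF5B complete the joining of the subunits, and eIF2B recharges eIF2 with GTP. The best known sites of control in this cycle are the binding of eIF4E by the 4E-BP proteins and the recharging of eIF2.

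Expression is given as TPM, a transcript level scaled for transcript length and sequencing depth. The libraries held 16913185 to 19019904 reads in genes, and 1 read in a transcript of 1 kb was worth 0.0610 to 0.06995 TPM. Tested initiation factor rows held between 95 and 22994 reads in a library. The TPM of the deposited rows summed to 542749 to 543854 in M2 libraries and 548160 to 553186 in M0 libraries. The IL-4 targets Arg1 and Retnla averaged 1009 ± 7.40 and 4859 ± 135 TPM in M2 libraries, against 1.55 ± 0.328 and 0.172 ± 0.2004 TPM in M0 libraries (SD, n = 3 each). All 8 macrophage markers were detected, with a summed level of 15190 to 15570 TPM in M2 libraries and 16400 to 17550 TPM in M0 libraries. Summed markers of neutrophils were 27.6 to 34.7 TPM in M2 libraries and 29.7 to 37.5 TPM in M0 libraries, and those of fibroblasts were 6.65 to 7.11 TPM in M2 libraries and 9.10 to 9.56 TPM in M0 libraries. Marker sums of T and NK cells, B cells, mast cells and basophils, and dendritic cells were each below 2 TPM in every library, and erythroid markers were at 0. In bulk RNA, fewer cells of a type and less RNA per cell cannot be told apart.

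The library M0 replicate 2 stood apart from the other M0 libraries. Its initiation factor rows differed from those of M0 replicates 1 and 3 by a median of 0.114 and 0.115 on the log2 scale, whereas M0 replicates 1 and 3 differed from each other by 0.0343. Among M2 libraries these medians lay between 0.0336 and 0.0419. The deviation of M0 replicate 2 followed transcript length across the 50 tested rows, with a Spearman rho of 0.653 over rows that share 1 library, against 0.443 over all 11235 rows. M0 replicate 2 was the highest M0 library for 31 of the 50 rows and the lowest for 14, against 5850 and 3302 of all 11235 rows. The 31 included long transcripts such as Eif4g2, Eif5 and Eif5a2, and the 14 included short ones such as Eif4ebp1 and Eif2b2. Across the 50 rows, length and the M2 minus M0 log2 fold change of TPM plus 1 had a Spearman rho of -0.365. Without M0 replicate 2 it was -0.258, and over all 11235 rows these values were -0.112 and -0.0415. Longer initiation factor transcripts thus tended to have lower fold changes, and all these points share the same 6 libraries. Without M0 replicate 2, 4 initiation factor rows were called higher and 38 lower, the same counts as with it. The rows were not all the same, as the call of Eif2a was lost and Eif4ebp3 was newly called lower. With all 6 libraries, 17.7% of all tested rows were called higher and 45.3% lower. The shares of all rows in the fit without M0 replicate 2 are not given here.

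**Figure D1:**
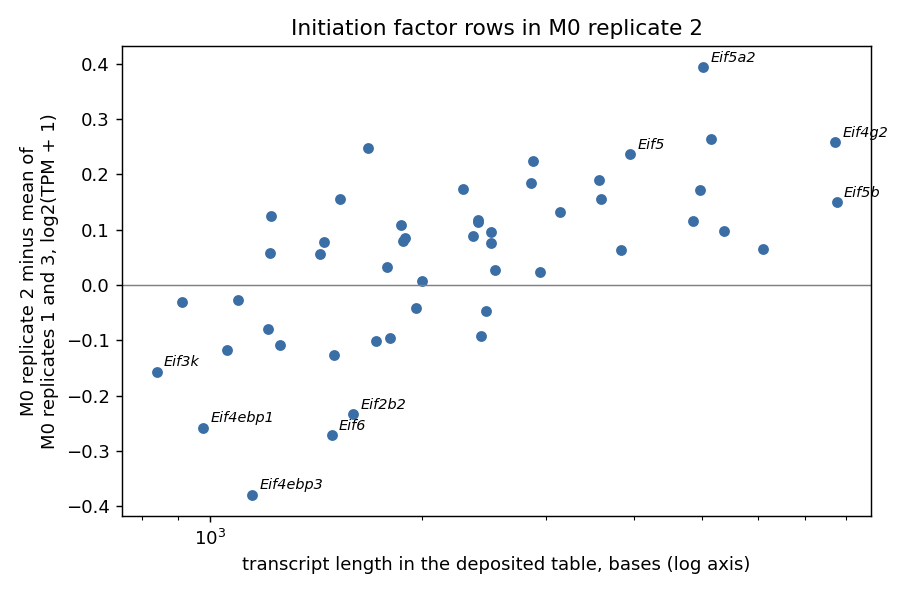
Deviation of M0 replicate 2 from the mean of M0 replicates 1 and 3 (log2 of TPM plus 1, vertical axis) against transcript length in bases (horizontal log axis), with 1 point for each of the 50 tested initiation factor rows. Long transcripts such as Eif5a2 and Eif4g2 lie above 0 and short ones such as Eif4ebp1 and Eif3k below it.

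Most initiation factor transcripts were lower in M2 cells. Rows were tested with limma on log2 of TPM plus 1, and a row was called at an adjusted p under 0.05 (Benjamini-Hochberg over 11235 rows). Of the 50 tested rows, 38 fell (76%), 4 rose (8%) and 8 did not pass. Over all tested rows 62.9% were called, 45.3% lower and 17.7% higher. The median log2 fold change (M2 minus M0) was -0.29 for the initiation factors and -0.15 for all tested rows. No member reached an absolute log2 fold change of 1, which 894 rows called in the same test did, although Eif4e just passed it with a pseudocount of 0.1 in place of 1. Summed over the family, with the doubly annotated Eif3j locus taken once, the level was 3617, 3619 and 3644 TPM in M2 libraries, against 4063, 4161 and 4111 TPM in M0 libraries. In these sums as deposited, every M2 library lay below every M0 library. The means were 3626 ± 15.1 TPM in M2 libraries and 4112 ± 49.1 TPM in M0 libraries (SD, n = 3 each).

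The share of calls in each direction depended on how the libraries were scaled. The median of all tested rows lay below 0. Dividing each library by its median-ratio factor moved that median by 0.155 on the log2 scale, to 0.0029. The factors were 0.940, 0.943 and 0.943 for M2 libraries 1 to 3, and 1.05, 1.09 and 1.05 for M0 libraries 1 to 3. Summed levels are given as deposited and were not recomputed after scaling, so their group differences depend on it. After this median scaling, 22 initiation factor rows were called lower, 9 higher and 19 did not pass, against 56.9% of all tested rows called, 28.2% lower and 28.8% higher. The median log2 fold change of the members was then -0.12. With M0 replicate 2 also left out, 29 were called lower and 10 higher. All 22 rows called lower and 4 of the 9 called higher after scaling had been called in the same direction before it, and no row was called in opposite directions. A value named as scaled is the log2 fold change after this step, the error of a log2 fold change is its SE, and the error of a mean level is the SD over the 3 libraries of a group. M2 and M0 libraries did not overlap for 47 of the 50 rows, 41 lower and 6 higher in M2 libraries, whereas 49.8% and 19.6% of all tested rows did not overlap in these directions.

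**Figure D2:**
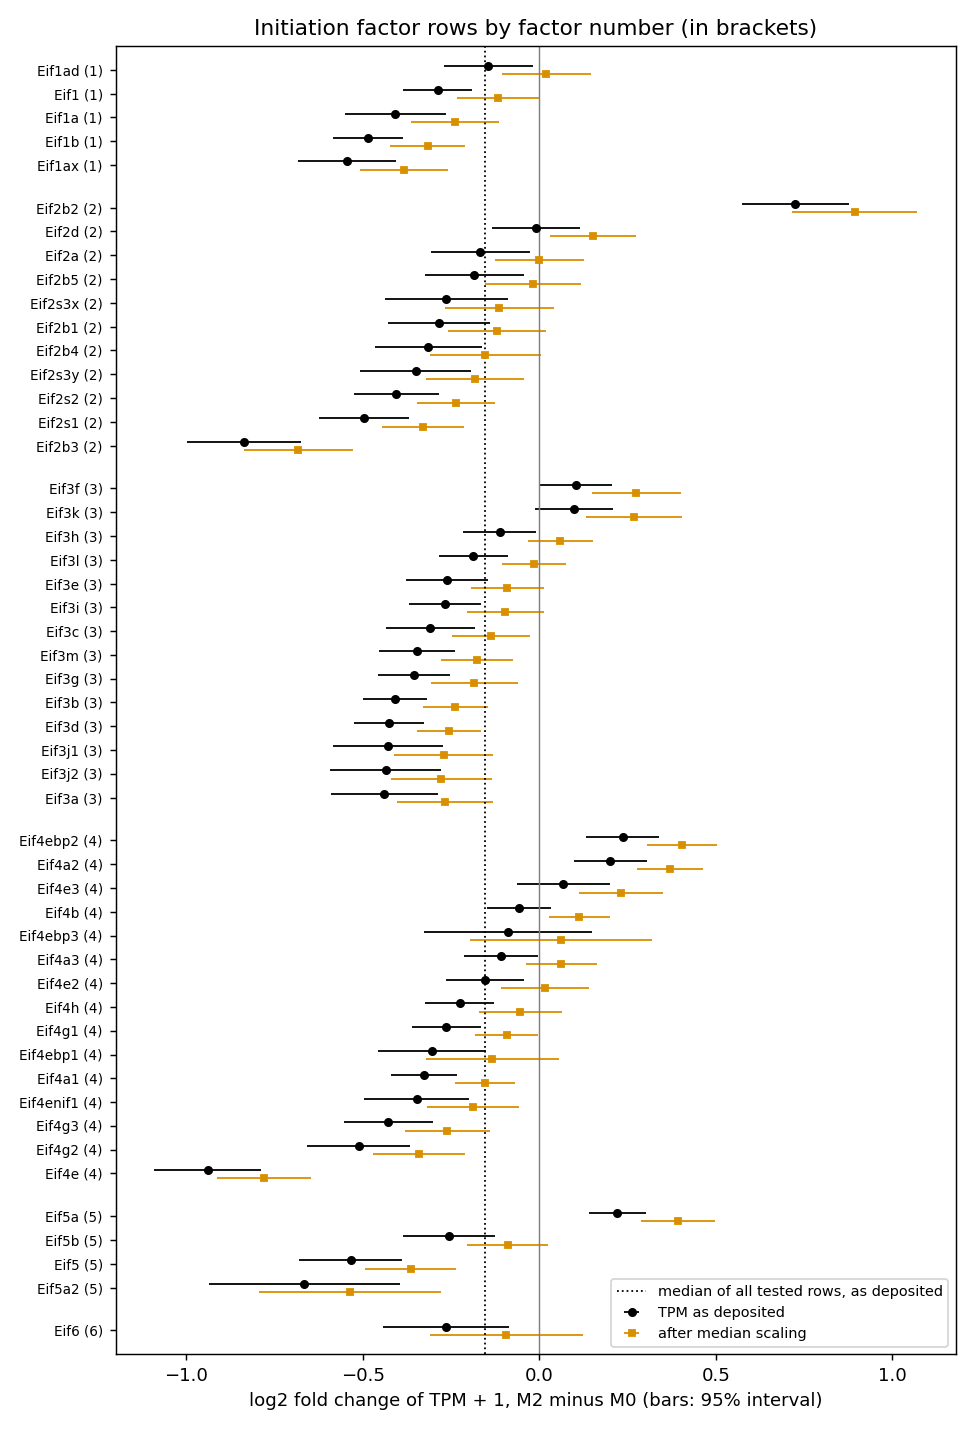
Log2 fold change of TPM plus 1 (M2 minus M0, horizontal axis) with its 95% interval for the 50 tested initiation factor rows, grouped by factor number, as deposited (circles) and after median scaling (squares). Most circles lie left of 0 and of the dotted median of all tested rows (-0.15), while Eif2b2 lies far to the right at 0.73 and Eif4e far to the left at -0.94.

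The largest rise was in Eif2b2 and the largest falls were in Eif4e, Eif2b3 and Eif5a2. The sequences before the start of 6 members are shown because they differ in the letters CACGTG, the E-box bound by MYC and related factors. Eif4e, Eif5a2 and Eif2b2 were among the largest changes, Eif4a1 and Eif5a were the most abundant rows of factors 4 and 5, and Eif4a2 is the paralog of Eif4a1 that rose. Each is the 250 bases before a transcript start in RefSeq on GRCm38.p6 (mm10), read 5′ to 3′ on the gene's strand in lower case, with each CACGTG in capitals.
Eif4e (chr3:138527018-138527267, plus strand): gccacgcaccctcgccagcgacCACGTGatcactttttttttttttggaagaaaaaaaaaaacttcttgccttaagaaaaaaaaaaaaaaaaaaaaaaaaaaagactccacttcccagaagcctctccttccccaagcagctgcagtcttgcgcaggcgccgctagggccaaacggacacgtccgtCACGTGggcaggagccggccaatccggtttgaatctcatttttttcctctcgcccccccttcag
Eif5a2 (chr3:28781027-28781276, plus strand): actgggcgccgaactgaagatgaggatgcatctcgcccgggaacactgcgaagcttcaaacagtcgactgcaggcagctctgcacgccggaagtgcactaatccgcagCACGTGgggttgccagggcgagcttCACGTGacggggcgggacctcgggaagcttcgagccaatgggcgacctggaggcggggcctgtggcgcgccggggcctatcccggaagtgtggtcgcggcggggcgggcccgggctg
Eif4a1 (chr11:69672424-69672673, minus strand): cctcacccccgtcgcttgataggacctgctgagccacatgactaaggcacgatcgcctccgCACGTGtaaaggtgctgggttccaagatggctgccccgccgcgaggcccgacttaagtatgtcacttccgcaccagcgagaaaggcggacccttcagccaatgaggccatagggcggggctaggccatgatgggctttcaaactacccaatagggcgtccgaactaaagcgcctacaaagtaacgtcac
Eif5a (chr11:69921276-69921525, minus strand): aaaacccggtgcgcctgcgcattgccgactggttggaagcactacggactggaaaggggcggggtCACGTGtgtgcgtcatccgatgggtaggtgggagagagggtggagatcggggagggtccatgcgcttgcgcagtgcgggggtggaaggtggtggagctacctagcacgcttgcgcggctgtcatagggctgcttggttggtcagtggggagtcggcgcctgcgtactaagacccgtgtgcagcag
Eif2b2 (chr12:85219231-85219480, plus strand): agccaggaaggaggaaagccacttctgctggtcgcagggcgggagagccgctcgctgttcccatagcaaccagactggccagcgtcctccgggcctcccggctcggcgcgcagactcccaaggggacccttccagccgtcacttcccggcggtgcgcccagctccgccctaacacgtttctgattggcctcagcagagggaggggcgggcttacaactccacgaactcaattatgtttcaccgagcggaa
Eif4a2 (chr16:23107218-23107467, plus strand): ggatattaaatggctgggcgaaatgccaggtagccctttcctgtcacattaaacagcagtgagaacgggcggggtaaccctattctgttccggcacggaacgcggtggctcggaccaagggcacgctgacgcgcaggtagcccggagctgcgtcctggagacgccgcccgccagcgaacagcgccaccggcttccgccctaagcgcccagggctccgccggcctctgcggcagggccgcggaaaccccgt
The first 4 sequences hold the box, and those of Eif2b2 and Eif4a2 do not. Eif4e and Eif5a2 each have 2 boxes, 228 and 64 bases before the start in Eif4e and 142 and 117 bases before it in Eif5a2. The box of Eif4a1 lies 189 bases before the start, and that of Eif5a 185. The start shown for Eif4e, at position 138527268, lies inside the transcript that the deposited TPM table uses, which begins at 138526191 and whose own upstream window holds no box. CACGTG reads the same on both strands, and it was searched in windows of 300 bases, from 250 before to 50 after each start. It was found for 10 of the 39 member genes in the promoter table (25.6%), against 8.09% of 27025 genes. With the start used in the TPM table alone, it was found for 9 of 39 (23.1%), against 8.06% of 17620 genes. Both comparison sets include genes with too little signal to test, and the share among tested rows was not computed. Of the 10 genes with the box (Eif1b, Eif3a, Eif3f, Eif3k, Eif4a1, Eif4e, Eif4g1, Eif4h, Eif5a and Eif5a2), 7 fell, 1 rose and 2 did not pass, with a median log2 fold change of -0.29. Of the 29 without it, 23 fell, 3 rose and 3 did not pass, also with a median of -0.29. After scaling, 5 of the genes with the box were called lower and 3 higher, and of those without it 13 were called lower and 5 higher. Over all tested rows, 45.3% were called lower and 17.7% higher, and after scaling 28.2% and 28.8%. Myc itself, which encodes one of the factors that bind the box, fell to 13.0 ± 0.831 TPM in M2 libraries, against 28.4 ± 1.27 TPM in M0 libraries (SD, n = 3 each; log2 fold change -1.07, scaled -0.91), and its part in these results was not tested.

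Factor 1 holds the small proteins that guard start codon selection, and all 5 of its rows fell. After scaling 3 of the 5 were still called, and Eif1ad turned to 0.021. Counts here and for the factors below stand beside 45.3% lower and 17.7% higher over all tested rows. After scaling those shares were 28.2% and 28.8%. Eif1 encodes eIF1, which keeps the scanning ribosome from accepting a wrong start codon, and was the most abundant of the 5. It had 123, 121 and 124 TPM in M2 libraries 1 to 3, against 154, 143 and 154 TPM in M0 libraries 1 to 3. The groups did not overlap, and the log2 fold change was -0.29 ± 0.044 (SE), and -0.12 scaled, which did not pass. Its close paralog Eif1b had 43.8, 43.9 and 44.9 TPM in M2 libraries, against 61.0, 61.4 and 64.4 TPM in M0 libraries. Every M2 value of Eif1b lay below every M0 value, with a log2 fold change of -0.49 ± 0.045 (scaled -0.32), and it passed under every alternative tried.

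The forms of eIF1A, which binds the ribosomal A site and works with eIF1, come from Eif1ax and Eif1a. Eif1ax, on the X chromosome, had the largest fall of this factor, with 12.7, 12.0 and 12.7 TPM in M2 libraries and 17.6, 19.7 and 18.6 TPM in M0 libraries. For Eif1a the values were 36.9, 36.5 and 37.6 TPM in M2 libraries and 46.5, 54.9 and 47.2 TPM in M0 libraries. Every M2 value of both lay below every M0 value, with a log2 fold change of -0.54 ± 0.063 for Eif1ax (scaled -0.38) and -0.41 ± 0.064 for Eif1a (scaled -0.24). Eif1ad, which encodes a protein with an eIF1A-like domain, was the weakest call of the factor at -0.14. Its call was lost when any library other than M0 replicate 2 was left out, at adjusted p from 0.0697 to 0.195 (limma, Benjamini-Hochberg), and 16.7% of its exon bases are shared with Banf1 on the opposite strand, whose reads cannot be told apart from its own without strand.

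Factor 2 holds the subunits of eIF2, all of which fell, and those of eIF2B, of which 1 rose and 4 fell. After scaling, 3 of the 4 eIF2 rows and 1 eIF2B row were called lower. Eif2s1 encodes the alpha subunit, whose phosphorylation turns eIF2 into an inhibitor of eIF2B. It had 28.7, 29.6 and 27.1 TPM in M2 libraries, against 39.5, 43.2 and 39.1 TPM in M0 libraries. For Eif2s2, the beta subunit, the levels were 34.5, 33.4 and 34.2 TPM in M2 libraries and 42.5, 47.4 and 46.2 TPM in M0 libraries. No M2 value of either gene reached an M0 value, and the log2 fold changes were -0.50 ± 0.058 for Eif2s1 (scaled -0.33) and -0.40 ± 0.053 for Eif2s2 (scaled -0.24).

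The gamma subunit, which binds the initiator transfer RNA and GTP, has an X-linked and a Y-linked gene. Eif2s3y, the Y-linked form, had 31.0, 29.6 and 31.2 TPM in M2 libraries and 37.5, 44.1 and 36.6 TPM in M0 libraries. The X-linked Eif2s3x was lower per length in every library, with 5.77, 6.08 and 6.21 TPM in M2 libraries and 7.04, 8.19 and 7.09 TPM in M0 libraries. Both fell without overlap, Eif2s3y by a log2 fold change of -0.35 ± 0.070 (scaled -0.18) and Eif2s3x by -0.26 ± 0.078 (scaled -0.11, not called). The call of Eif2s3x was lost without M2 replicate 1, at an adjusted p of 0.0570 (limma, Benjamini-Hochberg). Of the 50-base stretches of Eif2s3x, 36.2% also occur in Gm2223, so its reads may be split. The sum of the 4 eIF2 rows was 99.1 ± 0.776 TPM in M2 libraries and 133 ± 8.85 TPM in M0 libraries (SD, n = 3 each).

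Eif2b2 was the member with the largest rise. It encodes eIF2B beta, a regulatory subunit of the exchange factor through which eIF2 regains GTP. The gene lies on the plus strand at chr12:85219481-85226628 (mm10) and its transcript has 8 exons. Its levels were 58.8, 55.4 and 56.9 TPM in M2 libraries, against 35.2, 30.5 and 36.9 TPM in M0 libraries. The lowest M2 value was well above the highest M0 value, and the mean of 57.0 ± 1.67 TPM in M2 libraries was 1.67 times the 34.2 ± 3.32 TPM in M0 libraries (SD, n = 3 each). The log2 fold change was 0.73 ± 0.068 (adjusted p = 7.11e-06, limma with Benjamini-Hochberg adjustment) and 0.89 scaled. None of its 50-base stretches occurs in another annotated transcript.

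The other 4 eIF2B rows fell, and Eif2b3 fell most. Eif2b3 encodes the gamma subunit, which forms the catalytic part of the complex with the epsilon subunit. It had 6.45, 6.06 and 5.54 TPM in M2 libraries, against 11.1, 11.8 and 11.6 TPM in M0 libraries. All M2 values were below all M0 values, and the log2 fold change was -0.84 ± 0.073 (adjusted p = 4.04e-06, limma with Benjamini-Hochberg adjustment; scaled -0.68).

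Eif2b1, the alpha subunit, had 14.9, 15.2 and 16.9 TPM in M2 libraries and 20.0, 19.4 and 18.6 TPM in M0 libraries. Eif2b4, the delta subunit, had 14.1, 13.2 and 14.97 TPM in M2 libraries and 18.9, 16.9 and 17.5 TPM in M0 libraries. Eif2b5 encodes the catalytic epsilon subunit and had 25.2, 26.7 and 23.6 TPM in M2 libraries and 30.0, 29.1 and 27.1 TPM in M0 libraries. The groups did not overlap for these 3 genes, with log2 fold changes of -0.28, -0.31 and -0.18, but none of the 3 was called after scaling (-0.12, -0.15 and -0.017). The call of Eif2b5 was also lost without M0 replicate 1, M2 replicate 1 or M2 replicate 3, at adjusted p of 0.0906, 0.0718 and 0.122 (limma, Benjamini-Hochberg). The 5 eIF2B rows summed to 118 ± 1.38 TPM in M2 libraries and 111 ± 3.70 TPM in M0 libraries (SD, n = 3 each), because the rise of Eif2b2 was larger than the 4 falls together.

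**Figure D3:**
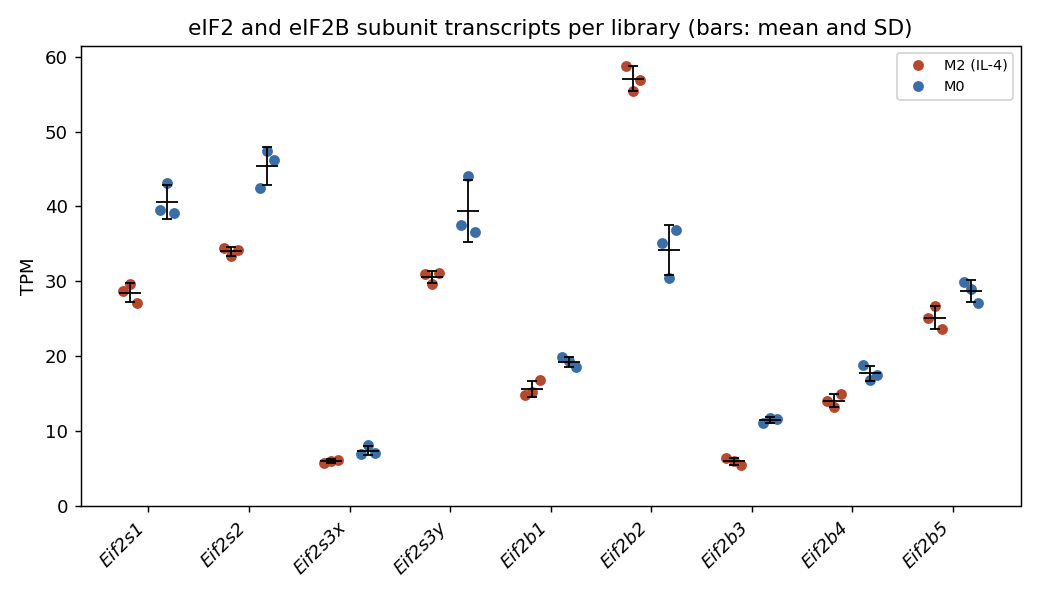
TPM of the eIF2 and eIF2B subunit transcripts in each library (points), with the group mean and SD (bars), M2 left of M0 for each gene. Eif2b2 is the only one of the 9 transcripts that is higher in M2 libraries (57.0 TPM in M2, 34.2 TPM in M0), and Eif2b3 shows the largest relative fall (6.02 TPM in M2, 11.5 TPM in M0).

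The remaining factor 2 rows encode proteins outside the eIF2 complex. Eif2a, for an alternative carrier of initiator transfer RNA, averaged 26.0 ± 0.830 TPM in M2 libraries and 29.4 ± 2.29 TPM in M0 libraries, a log2 fold change of -0.17. Its call was lost without any library other than M0 replicate 1, at adjusted p from 0.0605 to 0.146 (limma, Benjamini-Hochberg), and after scaling its value was 0.00041. Eif2d, whose protein is related to Mcts1 and Denr of ribosome recycling, averaged 14.5 ± 0.316 TPM in M2 libraries and 14.6 ± 0.258 TPM in M0 libraries and did not pass. Its log2 fold change was -0.0079 (95% interval from -0.13 to 0.12), the libraries of the groups overlapped, and the scaled value of 0.15 passed as higher.

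Factor 3 is the large scaffold eIF3, which binds the small ribosomal subunit and recruits the messenger. Of its 14 rows, 11 fell, none rose and 3 did not pass, and after scaling 8 were called lower and 2 higher. All 14 rows had groups that did not overlap, 12 of them lower and 2 higher in M2 libraries. Over all tested rows, 49.8% did not overlap and were lower, and 19.6% did not overlap and were higher. The sum over 13 loci was 1226 ± 13.1 TPM in M2 libraries and 1426 ± 26.8 TPM in M0 libraries (SD, n = 3 each). Log2 fold changes of the rows ran from -0.44 to 0.10, a narrower range than in factors 2, 4 and 5.

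The peripheral subunits, which encircle the decoding face of the ribosome, fell as a group. Eif3b averaged 108 ± 1.82 TPM in M2 libraries and 144 ± 3.47 TPM in M0 libraries. The log2 fold changes were -0.41 for Eif3b, -0.43 for Eif3d, -0.35 for Eif3g and -0.27 for Eif3i, and only Eif3i was not called after scaling (-0.096). The antisense gene Gm17638 covers 32.9% of the exon bases of Eif3d.

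The 8 core subunits form the octamer on which the rest of eIF3 is built, and they did not move evenly. Eif3a, the largest subunit, had the largest fall, with 95.4, 95.7 and 94.1 TPM in M2 libraries, against 119, 146 and 124 TPM in M0 libraries. All M2 values were lower than the lowest M0 value, M0 replicate 2 was the highest, and the log2 fold change was -0.44 ± 0.068 (scaled -0.27). Eif3m (-0.35), Eif3c (-0.31), Eif3e (-0.26) and Eif3l (-0.19) also fell, with log2 fold changes in brackets, and the last 2 were not called after scaling (-0.090 and -0.016). The most abundant eIF3 transcript, Eif3f, had 169, 168 and 173 TPM in M2 libraries, against 161, 149 and 164 TPM in M0 libraries. Each M2 value was above each M0 value, yet the log2 fold change of 0.10 ± 0.046 missed the threshold (adjusted p = 0.0726, limma with Benjamini-Hochberg adjustment). It passed as higher after scaling at 0.28, and also without M0 replicate 3 at 0.13. Eif3k, at 144 ± 1.15 TPM in M2 libraries and 134 ± 8.35 TPM in M0 libraries, had 0.098 (not passed) and a scaled value of 0.27 that passed. Eif3h did not pass in either form (-0.11, scaled 0.059), but without M0 replicate 3 it was called lower at -0.14.

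The loosely bound subunit eIF3j is counted in 2 rows, Eif3j1 and Eif3j2, whose spans begin at 122028580 and 122028583 on chromosome 2 and are the same locus. Of the 50-base stretches of Eif3j2, 90.8% also occur in Eif3j1, so the rows share reads and are taken as 1 locus here. The annotated transcript matched to Eif3j2 has 1 exon and that of Eif3j1 has 8, so the symbols may belong to separate genes. Eif3j1 averaged 9.31 ± 0.583 TPM in M2 libraries and 12.9 ± 0.658 TPM in M0 libraries, a log2 fold change of -0.43 (scaled -0.27). Exons of Spg11 on the opposite strand cover 20.5% of the 5413 exon bases of the annotated Eif3j1 transcript. The counted Eif3j1 transcript has 2403 bases, and how much of it Spg11 covers was not computed. Spg11 had 13.1 to 14.4 TPM in M2 libraries and 11.8 to 14.7 TPM in M0 libraries. With the locus counted once, 37 of 49 tested genes fell and 4 rose.

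Factor 4 covers the machinery that finds and opens the capped end of the messenger. Of its 16 rows, 9 fell, 2 rose, 4 did not pass and 1, Eif4e1b, was not tested. Of the 15 tested, 60% fell and 13.3% rose, against 45.3% and 17.7% of all tested rows. After scaling 5 were called lower (33.3%) and 4 higher (26.7%), near the 28.2% and 28.8% of all tested rows. Eif4e1b, a germ-cell form of eIF4E, had no read in any library. A floor of 3 reads corresponds to 0.0987 to 0.111 TPM in M2 libraries and 0.106 to 0.113 TPM in M0 libraries for this transcript, so a level below that was not detectable.

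Eif4e, which encodes the cap-binding protein eIF4E, fell more than any other member. The row in the table spans chr3:138526191-138559696 on the plus strand (mm10) with 8 exons. It had 9.58, 9.34 and 10.0 TPM in M2 libraries, from 696 to 817 reads, against 18.4, 21.1 and 18.9 TPM in M0 libraries, from 1341 to 1587 reads. The highest M2 library was well below the lowest M0 library, and the M2 mean of 9.65 ± 0.351 TPM was 0.496 times the M0 mean of 19.4 ± 1.46 TPM (SD, n = 3 each). The log2 fold change was -0.94 ± 0.068 (adjusted p = 1.02e-06, limma with Benjamini-Hochberg adjustment) and -0.78 scaled. In the authors' deposited table, which uses the transcript starting at 138527268, it was -0.83.

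Of the paralogs of Eif4e, Eif4e2 had a smaller fall and Eif4e3 did not pass. Eif4e2 encodes 4EHP, a cap-binding protein known for repressing translation, and had 40.2, 38.6 and 40.5 TPM in M2 libraries and 44.6, 42.4 and 46.1 TPM in M0 libraries. The groups did not overlap and the log2 fold change was -0.15 ± 0.050, but the scaled value was 0.015. Its call was lost without M0 replicate 1, M0 replicate 3, M2 replicate 1 or M2 replicate 2, at adjusted p of 0.0542, 0.0701, 0.0555 and 0.0965 (limma, Benjamini-Hochberg). Eif4e3, an atypical cap binder, had 17.4, 17.6 and 18.2 TPM in M2 libraries and 15.9, 17.5 and 17.2 TPM in M0 libraries. Its groups overlapped, and the log2 fold change of 0.068 (95% interval from -0.064 to 0.20) did not pass, whereas the scaled value of 0.23 did.

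The 4E-BP proteins hold eIF4E away from its scaffold until they are phosphorylated, and their transcripts moved in different directions. Eif4ebp2 rose, with 44.6, 43.3 and 44.8 TPM in M2 libraries, against 36.3, 38.0 and 38.0 TPM in M0 libraries. Eif4ebp1, the most abundant of the 3, fell, with 106, 113 and 105 TPM in M2 libraries, against 141, 118 and 143 TPM in M0 libraries. Neither gene had overlapping groups, although M0 replicate 2 of Eif4ebp1 lay close to the M2 values. The log2 fold changes were 0.24 ± 0.046 for Eif4ebp2 (scaled 0.40) and -0.30 ± 0.069 for Eif4ebp1 (scaled -0.13, not called). Eif4ebp3 was low, with 6.44, 5.88 and 6.49 TPM in M2 libraries and 7.47, 5.48 and 7.39 TPM in M0 libraries. It overlapped through M0 replicate 2 and did not pass (-0.088), while without that library it was called lower at -0.21, and 67.3% of its exon bases belong to another annotated transcript on the same strand. Eif4enif1 encodes 4E-T, which carries eIF4E into the nucleus and to RNA granules, and fell by 0.35 on the log2 scale (scaled -0.19).

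All 3 eIF4G scaffold rows fell. Eif4g1 is the main scaffold between eIF4E, eIF4A and eIF3, and had 113, 110.1 and 113 TPM in M2 libraries and 133, 141 and 131 TPM in M0 libraries. Eif4g2 encodes DAP5, which lacks the eIF4E-binding site and serves cap-independent initiation, and had 121, 123 and 122 TPM in M2 libraries and 165, 196 and 163 TPM in M0 libraries. Eif4g3, a second full-length scaffold, had 25.1, 23.4 and 22.5 TPM in M2 libraries and 31.9, 33.1 and 31.4 TPM in M0 libraries. The groups were separate for each, and M0 replicate 2 was the highest library of all 3. The log2 fold changes were -0.51 ± 0.066 for Eif4g2 (scaled -0.34), -0.43 ± 0.057 for Eif4g3 (scaled -0.26) and -0.26 ± 0.044 for Eif4g1 (scaled -0.092, not called).

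The RNA helicase eIF4A was present as a major form that fell and a minor form that rose. Eif4a1, the most abundant factor 4 transcript, had 262, 258 and 262 TPM in M2 libraries, against 319.8, 344 and 317 TPM in M0 libraries. Its paralog Eif4a2, on chromosome 16, had 53.1, 53.3 and 54.4 TPM in M2 libraries, against 45.2, 48.5 and 45.9 TPM in M0 libraries. Neither gene had overlapping groups, and the opposite directions held after scaling, with log2 fold changes of -0.33 ± 0.041 for Eif4a1 (scaled -0.15) and 0.20 ± 0.046 for Eif4a2 (scaled 0.37). Of the 50-base stretches of Eif4a1, 64.9% also occur in the pseudogene Eif4a-ps4, so its level is uncertain. Eif4a3, the helicase of the exon junction complex, averaged 77.8 ± 2.32 TPM in M2 libraries and 83.9 ± 3.27 TPM in M0 libraries. It did not pass (-0.11, scaled 0.063), except without M0 replicate 1, when it was called lower at -0.14.

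Eif4h and Eif4b encode cofactors that stimulate the helicase. Eif4h had 145, 145 and 146 TPM in M2 libraries and 169, 163 and 179 TPM in M0 libraries, and fell by 0.23 on the log2 scale (scaled -0.054, not called). Eif4b had 109.7, 108 and 110.3 TPM in M2 libraries and 111, 117 and 113 TPM in M0 libraries. The groups of Eif4b touched closely without overlapping, and its log2 fold change of -0.057 (95% interval from -0.15 to 0.033) did not pass, while the scaled value of 0.11 passed as higher.

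**Figure D4:**
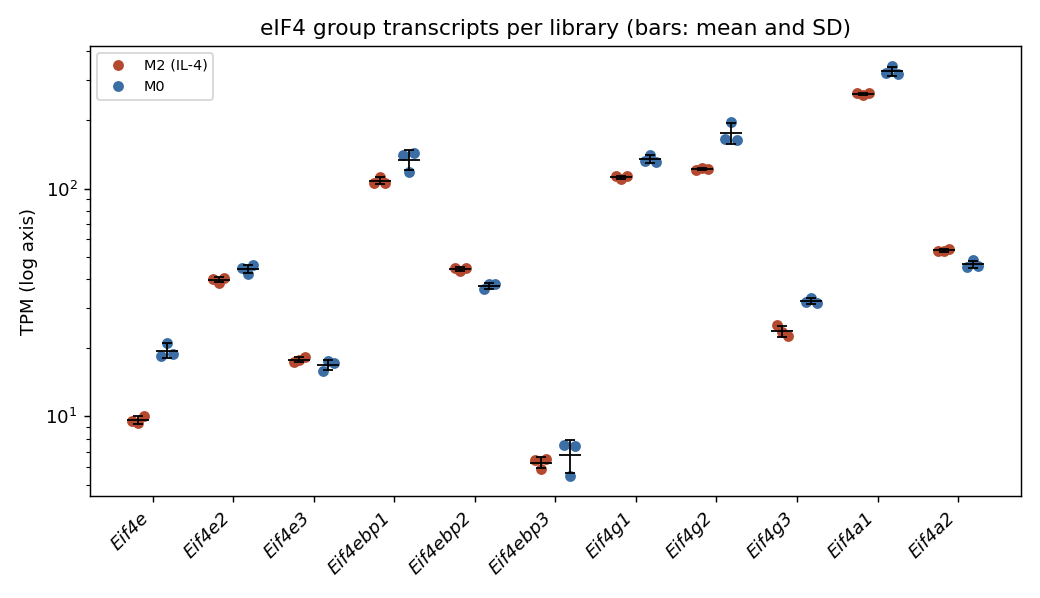
TPM (log axis) of the eIF4E, 4E-BP, eIF4G and eIF4A transcripts in each library (points), with the group mean and SD (bars), M2 left of M0 for each gene. Eif4e shows the widest gap (9.65 TPM in M2, 19.4 TPM in M0), Eif4ebp2 and Eif4a2 are higher in M2 libraries, and Eif4e3 and Eif4ebp3 overlap.

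Factor 5 held the most abundant member, which rose, and 3 rows that fell. Eif5a encodes eIF5A, a protein with the modified residue hypusine that helps the ribosome through difficult sequences and in termination. It had 580.5, 583 and 577 TPM in M2 libraries, against 509, 479 and 504 TPM in M0 libraries. Each M2 value lay above each M0 value, with a log2 fold change of 0.22 ± 0.036 (adjusted p = 0.000407, limma with Benjamini-Hochberg adjustment; scaled 0.39). Because of Eif5a, the factor 5 sum of 673 ± 1.63 TPM in M2 libraries exceeded the 627 ± 3.96 TPM in M0 libraries (SD, n = 3 each). It was the only factor number for which the sum as deposited was higher. Eif5a2, the paralog of Eif5a, was scarce, with 1.96, 2.55 and 2.36 TPM in M2 libraries, from 144 to 194 reads. In M0 libraries Eif5a2 had 3.74, 5.24 and 3.76 TPM, from 270 to 398 reads. M0 replicate 2 was the highest, the groups did not overlap, and the log2 fold change was -0.67 ± 0.12 (scaled -0.54). On this scale the pseudocount understates the change of so low a gene.

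Eif5 encodes the protein that makes eIF2 hydrolyse GTP at the start codon. It had 61.6, 60.5 and 63.8 TPM in M2 libraries, against 85.0, 101 and 85.6 TPM in M0 libraries. Eif5b, for the GTPase that joins the large subunit, had 29.1, 29.3 and 29.0 TPM in M2 libraries and 32.6, 37.6 and 35.0 TPM in M0 libraries. Both fell without overlap, and M0 replicate 2 was the highest library for both. The log2 fold changes were -0.53 ± 0.065 for Eif5 (scaled -0.36) and -0.26 ± 0.058 for Eif5b (scaled -0.089, not called), and 21.1% of the exon bases of Eif5b lie opposite exons of Rev1.

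Factor 6 is the single gene Eif6, whose protein keeps the large ribosomal subunit from joining too early and takes part in its assembly. It had 92.7, 88.1 and 93.3 TPM in M2 libraries, against 110.1, 96.8 and 124 TPM in M0 libraries. The M0 libraries were widely spread, and the lowest, replicate 2, was only slightly above the M2 values. The log2 fold change was -0.26 ± 0.079, and -0.093 scaled, which did not pass. The call was lost without M2 replicate 2, at an adjusted p of 0.0530 (limma, Benjamini-Hochberg).

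Sequence shared with other genes limits some other members too. Of their 50-base stretches, 37.3% of those of Eif3m, 31.6% of Eif1, 27.8% of Eif2s2, 26.2% of Eif3h, 24.4% of Eif4a3 and 22.0% of Eif3e also occur in other annotated transcripts, so their levels are uncertain. Exons of Eif2b4 and Eif2a lie opposite those of Snx17 and Serp1 over 10.1% and 3.13% of their bases, and 14.8% of the exon bases of Eif4e3 belong to Gm20696 on the same strand.

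Ratios of members within a library do not depend on how that library is scaled. They can still carry the deviation of M0 replicate 2 with transcript length where the lengths differ. Examples are Eif4ebp1 (976 bases) over Eif4e (4969 bases) and Eif5a2 (5019 bases) over Eif5a (1208 bases). In all, 15 ratios were compared by an exact two-sided permutation test over the 6 libraries, for which the smallest possible p is 0.1. For 13 ratios the M2 and M0 libraries did not overlap and the test gave that smallest p of 0.1, or 0.115 after Benjamini-Hochberg adjustment over the 15, so none can pass 0.05 in this design. The summed 4E-BP transcripts over Eif4e gave 16.4, 17.3 and 15.6 in M2 libraries, against 10.0, 7.67 and 9.98 in M0 libraries. All M2 ratios were above all M0 ratios, a difference of 0.84 in log2. The ratio of Eif4e2 to Eif4e averaged 4.12 ± 0.0772 in M2 libraries and 2.29 ± 0.247 in M0 libraries (SD, n = 3 each). The ratio of Eif4e3 to Eif4e averaged 1.84 ± 0.0425 in M2 libraries and 0.869 ± 0.0421 in M0 libraries (SD, n = 3 each). Eif4e3 was thus above Eif4e per length in every M2 library and below it in every M0 library.

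Between the paralogous helicases, Eif4a2 over Eif4a1 was 0.203, 0.207 and 0.208 in M2 libraries, against 0.141, 0.141 and 0.145 in M0 libraries. The M2 ratios lay well above the M0 ratios, and the log2 difference was 0.53. The summed eIF2B rows over the summed eIF2 rows gave 1.19, 1.18 and 1.20 in M2 libraries, against 0.909, 0.753 and 0.866 in M0 libraries. This ratio was above 1 in each M2 library and below 1 in each M0 library, a log2 difference of 0.50. Of the 5 eIF2B rows, only Eif2b2 rose and the other 4 fell, and the ratio was not computed without Eif2b2. The difference therefore describes a sum that includes Eif2b2, and not a shift of the eIF2B rows as a set. The eIF2 sum in M2 libraries was 0.746 times its M0 mean, and the eIF2B sum was 1.06 times its M0 mean. Eif5a2 over Eif5a averaged 0.00395 ± 0.000514 in M2 libraries and 0.00858 ± 0.00204 in M0 libraries (SD, n = 3 each), a log2 difference of -1.10. Eif4ebp1 over Eif4ebp2 averaged 2.45 ± 0.134 in M2 libraries and 3.59 ± 0.411 in M0 libraries (SD, n = 3 each), a log2 difference of -0.55.

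The other ratios moved less. Eif5 over Eif1 differed by -0.25 in log2, Eif4g2 over Eif4g1 by -0.25, Eif1b over Eif1 by -0.21, Eif4g3 over Eif4g1 by -0.18, Eif4h over Eif4b by -0.17 and Eif1a over Eif1ax by 0.16. Eif2s3y over Eif2s3x averaged 5.09 ± 0.258 in M2 libraries and 5.29 ± 0.116 in M0 libraries (SD, n = 3 each; exact permutation p = 0.3), and the groups overlapped. Eif6 over Eif5b averaged 3.14 ± 0.111 in M2 libraries and 3.17 ± 0.522 in M0 libraries (SD, n = 3 each; exact permutation p = 1), also with overlap.

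**Figure D5:**
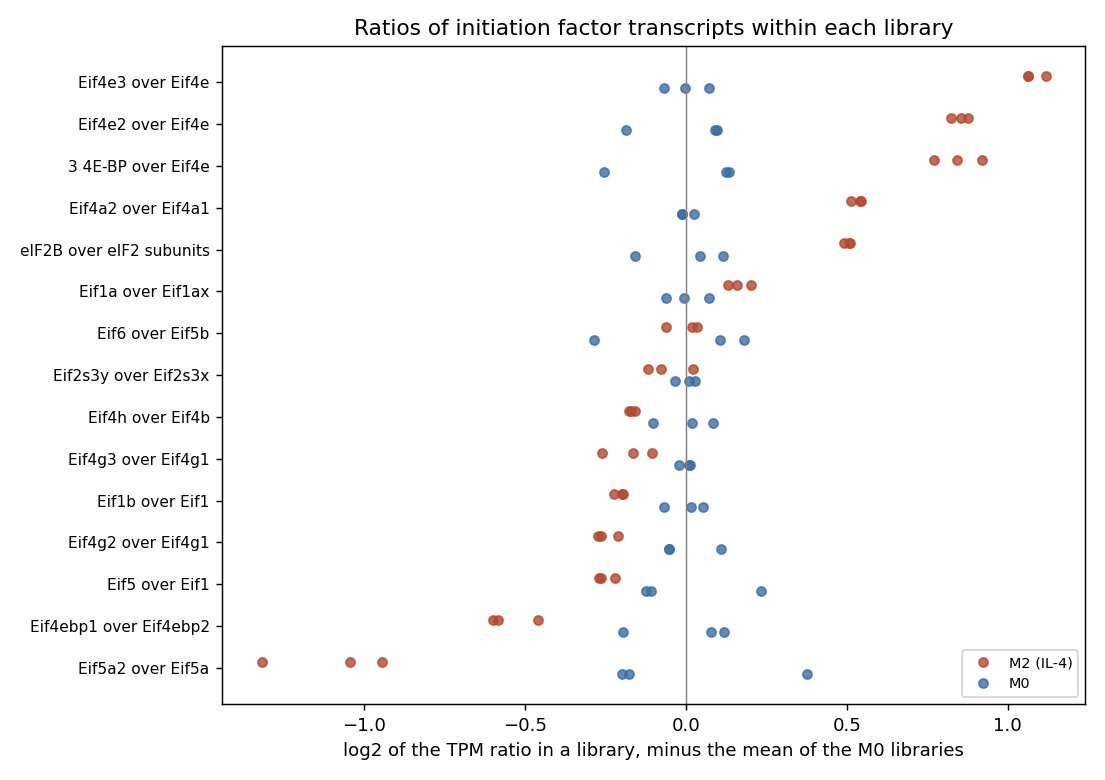
Log2 of 15 ratios of initiation factor TPM within each library (points), minus the mean of the M0 libraries, with M2 above M0 in each row. The M2 points lie apart from the M0 points in 13 rows and overlap them for Eif6 over Eif5b and Eif2s3y over Eif2s3x.

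The rest of the translation apparatus was described from 3 lists, whose shares stand beside 45.3% lower and 17.7% higher over all tested rows, and 28.2% and 28.8% after scaling. Among 14 elongation and termination factors, 8 fell (57.1%), none rose and 6 did not pass, with a median log2 fold change of -0.21. After scaling 5 were called lower (35.7%) and 3 higher (21.4%). Eef1e1, a scaffold protein of the aminoacyl-tRNA synthetase complex, averaged 16.5 ± 1.05 TPM in M2 libraries and 32.6 ± 3.99 TPM in M0 libraries (SD, n = 3 each; -0.93). Abce1, the ribosome recycling ATPase, fell by 0.71 on the log2 scale, the release factor gene Etf1 by 0.44 and Eef1g, of the eEF1B exchange complex, by 0.37.

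Among 11 eIF2 kinase, phosphatase and downstream genes, 5 fell (45.5%, near the share of all tested rows), none rose and 6 did not pass, with a median log2 fold change of -0.040. After scaling 3 were called lower (27.3%) and 6 higher (54.5%). Eif2ak2 encodes PKR, the kinase of eIF2 alpha that senses double-stranded RNA and is induced by interferon. It had 13.2, 14.1 and 14.5 TPM in M2 libraries, against 31.9, 40.2 and 27.5 TPM in M0 libraries. All M2 values were below the lowest M0 value, and the log2 fold change of -1.18 (scaled -1.01) exceeded that of any initiation factor. The phosphatase subunit gene Ppp1cc fell by 0.39 on the log2 scale, Atf4, a transcription factor translated when eIF2 is phosphorylated, by 0.36 and Eif2ak4, which encodes the amino acid sensor GCN2, by 0.28 (scaled -0.13, not called). Eif2ak1 and Eif2ak3, for the heme-regulated kinase and the endoplasmic reticulum kinase PERK, had log2 fold changes of 0.012 and 0.065 and did not pass, although both were called higher after scaling.

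Of 28 other regulators of initiation, 27 were tested, 15 fell (55.6%), 4 rose (14.8%) and 8 did not pass, with a median log2 fold change of -0.18. After scaling 11 were called lower (40.7%) and 5 higher (18.5%). Pdcd4 encodes an inhibitor that binds eIF4A. It had 19.3, 20.5 and 20.3 TPM in M2 libraries, against 9.41, 12.0 and 11.5 TPM in M0 libraries. The groups were far apart, and its log2 fold change of 0.82 (scaled 0.98) stood beside 0.73 (scaled 0.89) for Eif2b2. The other rises were in Paip2, an inhibitor of poly(A)-binding protein (0.34), Mknk1, a kinase of eIF4E (0.25), and Gigyf1, a partner of 4EHP (0.24). Larp1, which binds terminal oligopyrimidine messengers, fell by 0.52 on the log2 scale, the scanning helicase gene Dhx29 by 0.47, and Rptor, whose product raptor presents 4E-BP to the kinase mTOR, by 0.46. Mtor itself did not pass (-0.14, scaled 0.020).

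The authors' deposited table of their own comparison holds all 51 rows, 11 of them on another transcript than the TPM table. In the authors' deposited table, 22 members were lower and 8 higher in M2 cells at an adjusted p under 0.05, with a median log2 fold change of -0.13. The shares over all rows of the authors' comparison are not given here, so these counts have no background beside them. The authors' deposited table gave log2 fold changes of 0.90 for Eif2b2, 0.41 for Eif4ebp2, 0.40 for Eif5a and 0.31 for Eif4a2. The same deposited table by the authors gave -0.75 for Eif2b3, -0.70 for Eif5a2 and -0.35 for Eif4g2.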

How the data were processed

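Polyadenylated RNA of 3 M2 and 3 M0 BMDM libraries was sequenced, and groups and replicate numbers came from the sample titles. HOMER 4.11.1, STAR, bcl2fastq and DESeq2 with the mm10 build are listed in the submitters' processing notes. The authors deposited TPM per library and gene, counted by HOMER in exons of 1 RefSeq transcript a gene, per the file headers. The authors also deposited a comparison table whose columns, per the file headers, are log2-scale values of each library, a log2 fold change (checked to run M2 minus M0), the p-value and its adjusted form. The transformation to log2 and the use of strand in counting are not given in the sources used here.

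The members, lists and ratios were chosen with earlier results of these data known. The test was limma 3.58.1 in R 4.3.3 with group as the only term, two-sided, with trended and robust moderation, on log2 of TPM plus a pseudocount of 1. Rows entered it when at least 3 libraries reached 1 TPM. Benjamini-Hochberg adjustment ran over all 11235 tested rows with a threshold of 0.05, and intervals are at 95%. The fold change is on the log2(TPM + 1) scale, which understates changes of low rows. TPM multiplied by transcript length gave whole reads, within 0.1 read, for 99.9% of values below 500 reads, so reads were recovered, and their totals in genes were 89.8% to 90.9% of all tags counted in the headers. The floor of 3 reads covers counting error only. In the TPM table, 3 rows shifted by commas, none of them members, were realigned.

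Library values were given for the row with the highest mean, the largest rise and the largest fall of each factor number, the 8 largest changes and the rows in the ratios, plus up to 4 members of each other list. Eif2ak1, Eif2ak3, Mtor and the smaller rises among regulators were named after their values were seen. Exon overlaps and 50-base stretches were computed from GENCODE M21, in which 48 of the 51 rows were matched. The matched transcript can differ in length from the counted one, as for Eif4ebp3 with 744 and 1146 bases. These percentages hold for the matched transcript and are approximate for the counted one. Eif2b3, Eif2s3y and Eif4a2 were not matched, so exon overlaps and shared stretches of these rows were not checked. Promoters came from RefSeq, in which 39 rows were matched. Eif1a, Eif2b3, Eif3e, Eif3h, Eif3i, Eif3j2, Eif4e3, Eif4ebp1, Eif4ebp3, Eif4g2 and Eif6 were not in the promoter table. The test was tried on simulated data. Python 3.11.15 with pandas 2.3.3, numpy 2.4.6, scipy 1.17.1 and matplotlib 3.10.9 made the tables and figures.

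The alternatives were pseudocounts of 0.1 and 5, testing without a filter or with a minimum of 5 TPM, median scaling, the authors' deposited log2-scale values, limma-voom on recovered reads, a replicate block, omission of single libraries and, for ratios, read shares. Median scaling without M0 replicate 2 was added after seeing the data.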

Additional observations from a re-analysis of the deposited data

How the results depend on the processing

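Of the 50 tested initiation factors, 25 kept their direction and their side of the threshold under all 15 alternatives, among them Eif4e, Eif2b2, Eif2b3, Eif5a, Eif4a1, Eif4a2, Eif4ebp2, Eif5 and Eif4g2. Eif5a2 did so under the 14 that tested it, as it lay below the filter of 5 TPM. Pseudocounts changed none of the 50 calls, dropping the filter ended 3 (Eif1ad, Eif2a and Eif2b5), and limma-voom on recovered reads ended these and that of Eif4e2 and added Eif3f and Eif3k as higher. Most of the changed calls came with another scaling. Median scaling gave 9 members higher and 22 lower, the authors' log2-scale values 8 and 23, and median scaling without M0 replicate 2 gave 10 and 29. In the last, Eif1, Eif2b4, Eif3i, Eif4ebp1, Eif4g1, Eif4h and Eif6 were called lower, which median scaling with that library did not call. In these 3 settings all rows called higher were 3234, 3318 and 3417, and all rows called lower were 3163, 3323 and 3347. Elongation and termination factors had 3 higher under each of the 3 settings and 1 with voom, and 5 lower under median scaling and the authors' values. The eIF2 kinase list had 6 higher and 3 lower under all 3, and regulators had 8 higher under median scaling without M0 replicate 2.

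Leaving out 1 library at a time gave 4 to 5 members higher and 33 to 38 lower. It gave 0 to 1 elongation and termination factors higher, the 1 without M0 replicate 2. With all 6 libraries, 17.7% of all tested rows were higher and 45.3% lower. The shares of all rows with 1 library left out are not given here, so these counts have no background from the same fits. With 1 library left out, the log2 difference of Eif6 over Eif5b ran from -0.14 to 0.088. The log2 fold change of Eif2d ran from -0.024 to 0.0055. Some log2 fold changes turned positive. Under median scaling Eif1ad had 0.021, Eif2a 0.00041, Eif2d 0.15, Eif3h 0.059, Eif4a3 0.063, Eif4b 0.11, Eif4e2 0.015 and Eif4ebp3 0.061. With the authors' values Eif1ad had 0.018, Eif2d 0.14, Eif3h 0.055, Eif4a3 0.058, Eif4b 0.11, Eif4e2 0.015 and Eif4ebp3 0.045. With voom Eif2d had 0.044. Under median scaling without M0 replicate 2, Eif2a had 0.039, Eif2d 0.12, Eif3h 0.081, Eif4a3 0.069 and Eif4b 0.12. Of these, Eif4b was called higher in all 3, Eif2d under median scaling with and without M0 replicate 2, and Eif3h in the last alone. The cause was not tested.

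With the replicate block, 4 members were higher and 36 lower, and the calls of Eif1ad and Eif2a were lost. Without the block, 17.7% of all tested rows were higher and 45.3% lower, and the shares of all rows with the block are not given here. Deviations of same-numbered libraries correlated at 0.0050, -0.0049 and -0.043, and not every library correlated best with its own number. These values showed no pairing by number. They cannot exclude a pairing, because each deviation is from a mean of only 3 libraries. Groups of 3 are too small to test for a single outlying library. Eif5a2, with 144 to 398 reads, had the widest standard error among the members, 0.12 on the log2 scale.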
